A study of Mus musculus with 9 samples.

Results

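The lysosomal proteases of fracture callus other than cathepsin K, together with their main inhibitors, were followed through 10 genes. They were taken by symbol from the table of all genes and make up 10 of the 22054 genes in it. Of these, 6 encode cysteine cathepsins (Ctsb, Ctsc, Ctsh, Ctsl, Ctss and Ctsz), 2 encode lysosomal proteases of other classes (Ctsa and Ctsd) and 2 encode cystatins (Cst3 and Cstb). All 10 passed the filter on low counts in every comparison.

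Callus RNA was sequenced on day 7 after femoral fracture in C57BL/6J mice, which the sample labels describe as male and 7 weeks old, with bone as the tissue. There were 9 libraries, 3 in each of 3 groups, and every mouse had a fracture and was treated for 1 week. In the drug groups, 200 μl was injected into the peritoneum each day. The control group received an equal volume of 200 μl, for which neither the labels nor the study's methods state the route or the interval. The groups received H-151 (750 nmol), a small molecule that blocks STING, SR-717 (30 mg/kg), a small molecule that activates STING, or PBS, the saline control. STING is the adaptor that starts interferon and NF-κB signaling when DNA is sensed in the cytosol. The labels name no altered allele, the injected drugs were not aimed at a single cell type, and a callus holds many cell types, so that fewer cells of a type and less RNA per cell cannot be told apart. The label protocol speaks of RNA taken from cell lines, whereas the tissue label and the study's methods give callus. Markers of bone and cartilage were present, with none of the 8 osteoblast and 8 cartilage markers at 0 in any library, and Col1a1 and Col2a1 had the highest mean CPM of these lists. The labels call the libraries of a group separate biosamples and do not say whether each came from 1 mouse. The p-values therefore set a group difference against the spread between these libraries, which may not be the spread between mice.

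A library held between 16987398 and 23272480 counts. CPM is the count divided by the library total, itself corrected by the TMM method for the makeup of the library, on a fixed scale, and TPM is the authors' value, which is scaled for transcript length too. SR-717 replicate 1 stood apart from the other libraries over all genes, at 100.7 on the first principal component of log2 CPM (46.7% of the variance). PBS replicate 1 came next at 38.6, and the other 7 libraries lay between -29.3 and -4.08. Results that rest on either of them are therefore given with and without them.

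Cysteine cathepsins are made as inactive precursors, carried to the lysosome by mannose phosphate receptors and activated there at low pH. Cathepsins B and L are broad proteases of most cells. Cathepsin S is made mainly by antigen-presenting and other myeloid cells, stays active at neutral pH and trims the invariant chain of MHC class II. Cathepsin C removes dipeptides from the front of other proteases and so activates the granule serine proteases of neutrophils and lymphocytes. Cathepsin H is an aminopeptidase and cathepsin Z a carboxypeptidase. Cathepsin D is an aspartic protease, and cathepsin A is a serine carboxypeptidase that also protects other lysosomal enzymes. Cystatin C (Cst3) is secreted and cystatin B (Cstb) is cytosolic, and both block cysteine cathepsins. In bone, cathepsin K is the collagen-degrading enzyme of osteoclasts, while the enzymes described here are shared among osteoclasts, macrophages, neutrophils and mesenchymal cells.

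Levels between genes were compared per length, in TPM. Ctsk was the highest at a mean of 3818 TPM over the 9 libraries (SD 971), and all 10 genes followed below it. Ctsd (1628 ± 295 TPM, SD, n = 9) and Cst3 (1435 ± 307) came next, then Ctsb (875 ± 210), Ctsz (590 ± 100), Ctss (570 ± 347), Cstb (565 ± 157), Ctsl (426 ± 94.1), Ctsa (338 ± 29.7), Ctsh (296 ± 49.9) and Ctsc (155 ± 157). By mean TPM, Ctsd ranked 90th and Ctsc 876th of the 22054 genes. Medians over the 9 libraries, which rest less on SR-717 replicate 1 and PBS replicate 1, were 411 TPM for Ctss, 533 for Cstb and 96.5 for Ctsc. By median, Ctss was thus below Cstb.

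Several neighbours in this order did not differ beyond their spread. Ctsd lay above Cst3 in only 4 of 9 libraries, Ctsz above Ctss in 6, and Ctss above Cstb in 4. Ctsb lay above Ctsz in all 9, whereas the other steps held in 7 or 8 libraries. The ranges over libraries of every pair of neighbours overlapped.

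**Figure D1:**
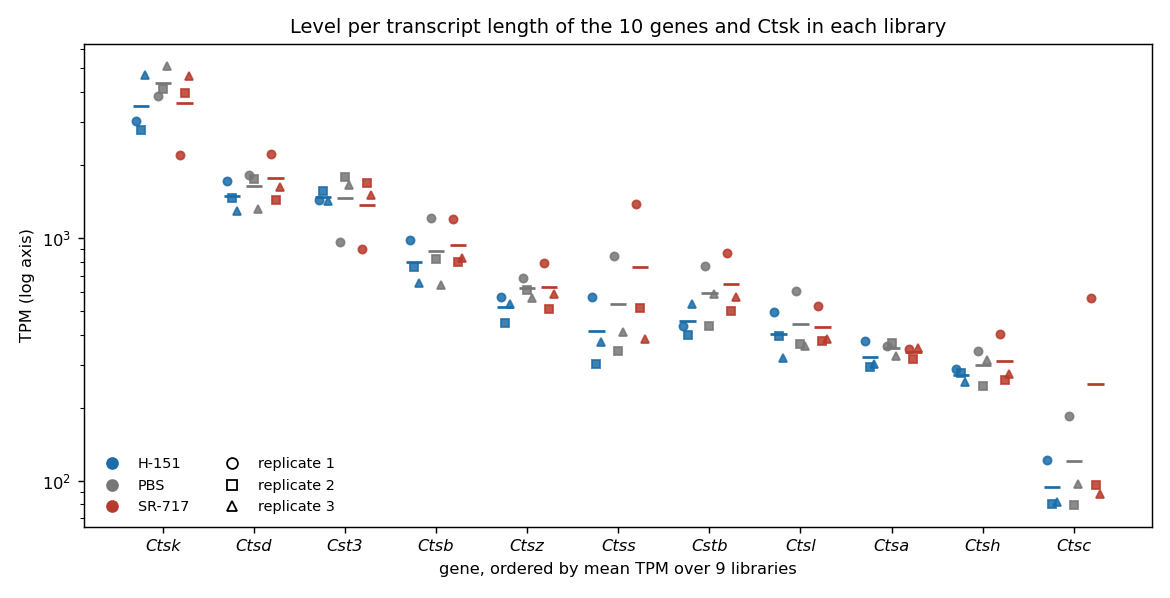
The vertical axis gives the authors' TPM on a log scale for Ctsk and the 10 genes, ordered by their mean over 9 libraries. Points are libraries, coloured by group and shaped by replicate number, and short lines are group means. Ctsc runs from 79.6 to 564 TPM and Ctss from 302 to 1383, while Ctsa stays between 294 and 377.

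Promoter windows of 4 of these genes are shown because Ctss and Ctsc varied most over the 9 libraries, Ctsa varied least over them and Ctsd had the highest level. RefSeq promoters (GRCm38.p6, 250 bases before to 50 bases after a start site) were available for 7 of the 10 genes in 8 windows, and Ctsb, Ctsh and Cstb had none. Ctsa had 2 windows, and the one shown lies at a start site inside the annotated gene, because the window at the gene's first base (chr2:164832622-164832921) held no match. Capitals mark matches on either strand to GAGGAAGT (an ETS site of the kind PU.1 binds), to an ISRE core (GAAA, any 2 bases, then GAAA) or to the E-box CACGTG. The E-box is the centre of the CLEAR element bound by TFEB, the master regulator of lysosomal genes.
Ctss, chr3:95526536-95526835, forward strand: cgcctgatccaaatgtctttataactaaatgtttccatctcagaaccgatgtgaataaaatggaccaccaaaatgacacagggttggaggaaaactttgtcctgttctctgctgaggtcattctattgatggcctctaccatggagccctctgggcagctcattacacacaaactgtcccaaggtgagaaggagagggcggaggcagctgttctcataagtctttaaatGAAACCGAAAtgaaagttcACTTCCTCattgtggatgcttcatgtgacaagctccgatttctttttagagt
Ctsc, chr7:88277835-88278134, forward strand: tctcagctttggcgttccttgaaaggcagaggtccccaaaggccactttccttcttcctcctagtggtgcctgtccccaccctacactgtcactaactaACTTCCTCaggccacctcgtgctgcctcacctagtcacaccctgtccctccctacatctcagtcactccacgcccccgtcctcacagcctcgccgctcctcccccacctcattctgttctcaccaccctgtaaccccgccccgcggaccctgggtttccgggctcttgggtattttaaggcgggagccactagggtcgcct
Ctsd, chr7:142387778-142388077, reverse strand: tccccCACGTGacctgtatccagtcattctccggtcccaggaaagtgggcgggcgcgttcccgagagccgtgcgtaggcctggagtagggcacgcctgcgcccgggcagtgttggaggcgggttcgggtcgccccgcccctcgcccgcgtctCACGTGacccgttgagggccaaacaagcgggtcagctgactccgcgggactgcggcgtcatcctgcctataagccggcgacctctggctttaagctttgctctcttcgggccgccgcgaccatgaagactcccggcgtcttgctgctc
Ctsa, chr2:164833523-164833822, forward strand: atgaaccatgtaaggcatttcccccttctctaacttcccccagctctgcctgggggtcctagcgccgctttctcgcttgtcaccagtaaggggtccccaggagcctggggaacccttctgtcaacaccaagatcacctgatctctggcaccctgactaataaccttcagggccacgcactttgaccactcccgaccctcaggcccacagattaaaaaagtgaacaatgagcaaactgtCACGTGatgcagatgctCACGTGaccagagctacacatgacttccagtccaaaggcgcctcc

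The Ctss window held an ISRE core that began 21 bases before the start site and, not overlapping it, an ETS match that began 2 bases before the start site and ran past it. Distances are to the first base of a match. The Ctsc window held an ETS match farther upstream. CACGTG was found in the windows of Ctsd (245 and 98 bases before), Ctsa (12 bases before and 5 after, in 1 of its 2 windows) and Ctsl (236 bases before). None of the 8 windows held the longer CLEAR form (CACGTG with GT ahead and AC behind) or an AP-1 match (TGANTCA), and those of Ctsz and Cst3 had no match of any kind. Over all 32851 promoters of the same length, CACGTG occurred in 7.15%, the longer form in 0.326%, GAGGAAGT in 3.2%, the ISRE core in 3.44% and TGANTCA in 7.81%. These are matches of letters in a window and do not show that a factor binds.

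Among the cysteine cathepsins, the widest spread belonged to Ctsc (ENSMUSG00000030560, GRCm38 chromosome 7 from 88278085 to 88310888, forward strand). It stood at 150, 109 and 129 CPM in H-151 replicates 1, 2 and 3, at 249, 102 and 141 CPM in the PBS replicates, and at 867, 144 and 123 CPM in the SR-717 replicates. SR-717 replicate 1 was thus far above the other 8 libraries, at 6.05 times their mean, and PBS replicate 1 was second. The other SR-717 libraries lay inside the range of the H-151 and PBS groups. The coefficient of variation over 9 libraries was 110%, and over the 7 libraries without SR-717 replicate 1 and PBS replicate 1 it was 14.1%.

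Ctss (ENSMUSG00000038642, chromosome 3 from 95526786 to 95556403, forward strand) lies on the same chromosome and strand as Ctsk, which ends at 95509362. It stood at 377, 216 and 305 CPM in the H-151 replicates, at 602, 233 and 313 CPM in the PBS replicates, and at 1125, 394 and 279 CPM in the SR-717 replicates. The highest library was again SR-717 replicate 1, at 3.31 times the mean of the other 8, followed by PBS replicate 1, and the groups overlapped. Without these libraries the coefficient of variation fell from 66.9% to 22.2%.

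Ctsb (ENSMUSG00000021939, chromosome 14 from 63122462 to 63145923, forward strand) was the cysteine cathepsin with the highest level. It stood at 2264, 1904 and 1868 CPM in the H-151 replicates, at 2996, 1959 and 1702 CPM in the PBS replicates, and at 3405, 2134 and 2100 CPM in the SR-717 replicates. Replicate 1 was the highest library in each of the 3 groups. The exons of Ctsb share 774 bases with those of Fdft1 on the other strand.

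Ctsl (ENSMUSG00000021477, chromosome 13 from 64359337 to 64370890, reverse strand) was the exception among these 6 cysteine cathepsins, since PBS replicate 1 was its highest library. It stood at 462, 396 and 373 CPM in the H-151 replicates, at 619, 356 and 388 CPM in the PBS replicates, and at 616, 403 and 396 CPM in the SR-717 replicates. Its exons share 395 bases with the pseudogene Gm49230 on the same strand and 1742 with an antisense gene, Gm47123, so its count is uncertain to that extent. Whether the authors counted by strand is not given in the sources used here.

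Ctsz (ENSMUSG00000016256, chromosome 2 from 174427493 to 174439039, reverse strand) and Ctsh (ENSMUSG00000032359, chromosome 9 from 90054152 to 90076089, forward strand) had a coefficient of variation of 20.6% and 21.8% over the 9 libraries and of 10.3% and 10.8% over the 7. Ctsz stood at 402, 340 and 462 CPM in the H-151 replicates, at 517, 444 and 459 CPM in the PBS replicates, and at 684, 417 and 453 CPM in the SR-717 replicates. Ctsh stood at 209, 220 and 232 CPM in the H-151 replicates, at 262, 182 and 260 CPM in the PBS replicates, and at 363, 218 and 217 CPM in the SR-717 replicates. For both genes SR-717 replicate 1 was the highest of the 9 libraries, at 1.57 times the mean of the other 8 for Ctsz and 1.62 times for Ctsh. The other SR-717 libraries fell within the range of the H-151 and PBS groups. The exons of Ctsz share 10 bases with those of Nelfcd on the other strand.

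The proteases of other classes were led by Ctsd (ENSMUSG00000007891, chromosome 7 from 142375911 to 142388038, reverse strand). It stood at 1782, 1637 and 1654 CPM in the H-151 replicates, at 2033, 1877 and 1572 CPM in the PBS replicates, and at 2840, 1724 and 1850 CPM in the SR-717 replicates. SR-717 replicate 1 was the only library above the 2033 CPM of PBS replicate 1. Ctsd shares 808 exon bases with Gm49369 on the same strand, a gene whose mean lay between 1.30 and 1.60 CPM in the 3 groups.

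Ctsa (ENSMUSG00000017760, chromosome 2 from 164832873 to 164841032, forward strand) had the lowest coefficient of variation of the 10 genes over the 9 libraries. It stood at 382, 320 and 391 CPM in the H-151 replicates, at 397, 377 and 392 CPM in the PBS replicates, and at 432, 384 and 408 CPM in the SR-717 replicates. This coefficient was 7.77%, and over the 7 libraries it was 7.38%, where Ctsd was lower at 6.61%. The exons of Ctsa share 495 bases with those of Pltp and 324 with those of Neurl2, both on the other strand. SR-717 replicate 1 was the highest library here too, but only 1.13 times the mean of the other 8.

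The inhibitors went apart. Cstb (ENSMUSG00000005054, chromosome 10 from 78425669 to 78427622, forward strand) stood at 127, 127 and 194 CPM in the H-151 replicates, at 242, 132 and 199 CPM in the PBS replicates, and at 313, 171 and 184 CPM in the SR-717 replicates. SR-717 replicate 1 was its highest library and PBS replicate 1 came next, as for most of the proteases. Over the other 7 libraries its order was not like that of every protease. There the Pearson r of log2 CPM was -0.43 with Ctsb, -0.38 with Ctsd and -0.30 with Ctsl. With the remaining proteases it lay between 0.33 (Ctss) and 0.72 (Ctsz). Cst3 (ENSMUSG00000027447, chromosome 2 from 148871722 to 148875692, reverse strand) stood at 601, 710 and 737 CPM in the H-151 replicates, at 434, 770 and 800 CPM in the PBS replicates, and at 466, 818 and 693 CPM in the SR-717 replicates. Replicate 1 was the lowest library of each group for Cst3, and PBS replicate 1 and SR-717 replicate 1 were the lowest of all.

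**Figure D2:**
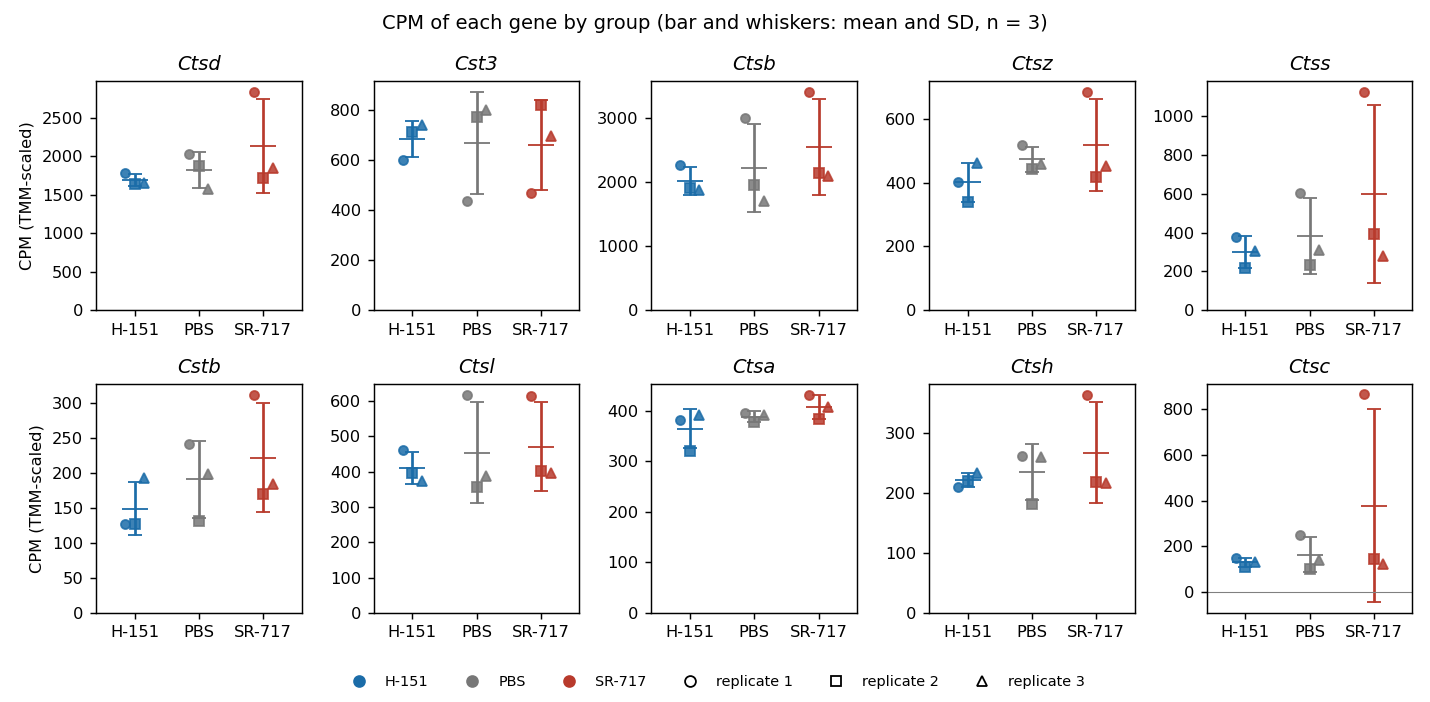
Each panel gives the CPM of 1 gene on a linear axis by group. Points are libraries, shaped by replicate number, and the bar with whiskers is the mean and SD of 3 libraries (for Ctsc in the SR-717 group the lower whisker runs below 0). SR-717 replicate 1 is the highest point for 8 of the 10 genes, and the groups overlap in every panel.

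The first comparison set the activator against the inhibitor, the contrast in which the drugs were meant to drive STING in opposite directions. Of the 10 genes, 9 had a higher fitted level in the SR-717 group, led by Ctsc, Ctss and Cstb, and Cst3 was lower by a small amount. None of these differences could be told from no difference in edgeR's quasi-likelihood test. With the thresholds of the study (p under 0.05, taken as unadjusted, and a change of at least 1.5-fold), 0 of the 10 genes were called, where 0.756% of the 14151 tested genes were. At an unadjusted p under 0.05 alone the count was also 0 of 10, beside 1.03% of all genes, and at an adjusted p under 0.05 it was 0 of 10 beside 0% of all. The groups did not separate for any of the 10, and 5.18% of all genes had groups that did not overlap. Over all tested genes, 53.4% had a higher fitted level in the SR-717 group, with a median log2 fold change of 0.02, and the median of the 10 genes was 0.33.

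The log2 fold change of Ctsc was 1.54, with a standard error of 0.78 and a 95% interval from -0.34 to 3.41 (adjusted p = 0.996, edgeR). For Ctss it was 0.99, with a standard error of 0.54 and an interval from -0.32 to 2.31 (adjusted p = 0.996, edgeR), and for Cstb 0.57, with a standard error of 0.30 and an interval from -0.15 to 1.28 (adjusted p = 0.996, edgeR). The remaining cathepsins lay close together, at 0.36 for Ctsz, 0.33 for Ctsb, 0.33 for Ctsd, 0.26 for Ctsh, 0.19 for Ctsl and 0.15 for Ctsa, with standard errors between 0.14 and 0.26. Cst3 had -0.06 (standard error 0.24, interval -0.63 to 0.52). These intervals include no difference, and for Ctsc and Ctss they also include changes of more than 4-fold upward, so the libraries did not settle the size.

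The differences of Ctsc and Ctss rested on SR-717 replicate 1. Without it, the value was 0.04 for Ctsc and 0.16 for Ctss, and the median of the 10 genes was 0.09, with 8 of them higher. Over all tested genes the median in that fit was -0.005. Without SR-717 replicate 3, in contrast, Ctsc (1.95) and Ctss (1.33) were both called, when 4.6% of all tested genes were, and without SR-717 replicate 2 Ctsc (1.92) was called, when 2.69% were. DESeq2's Wald test on all 6 libraries called Ctsc as well at the study's thresholds (log2 fold change 1.55, adjusted p above 0.999), beside 1.48% of all tested genes.

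The second comparison asked how the activator differed from the control injection. Again 9 of the 10 genes had a higher fitted level in the SR-717 group, and again none was called in edgeR's test (0 of 10, beside 0.519% of 14070 tested genes). At an unadjusted p under 0.05 there were also 0 of 10, beside 0.689% of all, and DESeq2 called 0 of 10. The groups overlapped for all 10 genes, while 3.75% of all genes did not overlap. The log2 fold change of Ctsc was 1.21, with a standard error of 0.82 and an interval from -0.77 to 3.18, and that of Ctss was 0.65, with a standard error of 0.61 and an interval from -0.82 to 2.11 (adjusted p above 0.999 for both, edgeR). The other 8 genes lay between -0.02 (Cst3) and 0.23 (Ctsd). The median of the 10 was 0.19, beside 0.01 for all tested genes, of which 52.2% had a higher fitted level.

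This direction did not hold without SR-717 replicate 1. In the fit that left it out, 2 genes were higher and 8 lower in the SR-717 group, with a median of -0.11, beside -0.02 for all tested genes. Ctsc (-0.30) and Ctss (-0.19) were then below the PBS group. PBS replicate 1, the highest library of its group for 9 of the 10 genes, remained in that fit. When SR-717 replicate 1 and PBS replicate 1 were both left out, a setting chosen after seeing the data, 7 genes were higher and 3 lower. Their median was 0.09, beside -0.003 for all tested genes. The sample labels number the replicates from 1 to 3 in each group. Between the SR-717 and PBS groups, deviations of libraries with equal numbers correlated across genes at 0.65, 0.34 and 0.14 for replicates 1, 2 and 3. A fit that blocked on this number called 443 genes in place of 73 (3.15% of those tested), and still 0 of the 10 genes, with Ctsc at 0.69 and Ctss at 0.50.

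The third comparison set the inhibitor against the control. All genes except Cst3 had a lower fitted level in the H-151 group, by at most 0.36 on the log2 scale, and none was called (0 of 10 in edgeR's test and in DESeq2's, beside 0.426% of 14085 tested genes in edgeR's). The count was 0 of 10 at an unadjusted p under 0.05, beside 0.646% of all genes. The groups overlapped for all 10, and did not for 3.87% of all genes. The lowest values were those of Cstb (-0.36, standard error 0.27), Ctss (-0.35, standard error 0.38) and Ctsc (-0.34, standard error 0.33), and Cst3 had 0.03 (standard error 0.26), each with an adjusted p above 0.999 in edgeR's test. The median of the 10 genes was -0.14, beside -0.02 for all tested genes, of which 44.2% had a higher fitted level in the H-151 group. Without PBS replicate 1, 5 genes were higher and 5 lower, with a median of -0.005, beside -0.006 for all tested genes in that fit. Blocked on the replicate number, 262 genes were called in place of 60 (1.86%), and again 0 of the 10. The 3 comparisons share groups, so their values for a gene are not independent of each other.

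**Figure D3:**
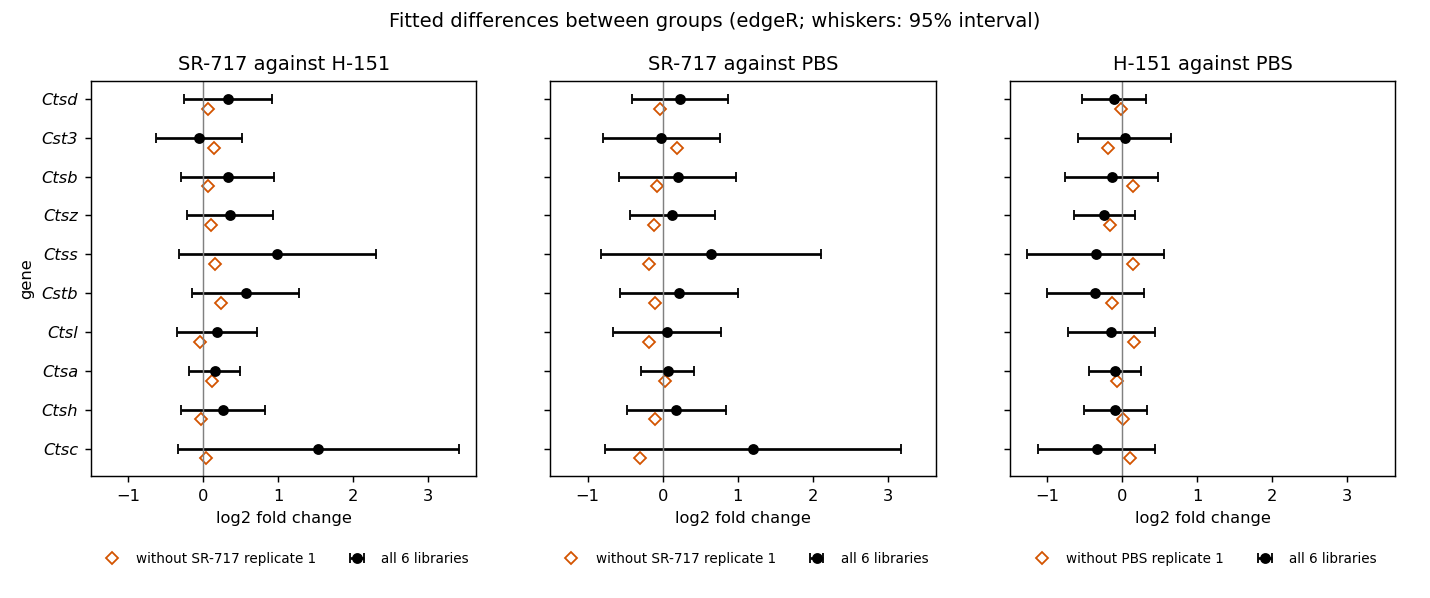
Each panel gives the fitted log2 fold change (edgeR) of the 10 genes in 1 comparison. Black points with whiskers are the estimate and its 95% interval from all 6 libraries, and open diamonds are the estimate without SR-717 replicate 1 (left and middle) or without PBS replicate 1 (right). All intervals cross 0, and the diamonds of Ctsc move from 1.54 to 0.04 in the left panel and from 1.21 to -0.30 in the middle panel.

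Across the 9 libraries, 9 of the genes varied together and Cst3 varied the other way. All 36 pairs without Cst3 had a Pearson r of log2 CPM above 0, between 0.45 and 0.96 with a median of 0.82, and all 9 pairs with Cst3 had an r below 0, between -0.96 and -0.40. These points share the 2 libraries that stand apart. Over the other 7 libraries, 26 of the 36 pairs had an r above 0 with a median of 0.28, and 4 of the 9 pairs with Cst3 did. Ctsc and Ctss stayed together in both sets, with r of 0.96 over 9 libraries and 0.94 over 7.

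Of all 14284 genes compared, those whose levels were most like Ctss over the 9 libraries were Nhlrc3 (r = 0.99), Apobec1 (0.99) and C3ar1 (0.99), the last of which encodes the C3a receptor of myeloid cells. For Ctsc they were Ptprj, Rab20 and Lcp2 (each 0.99), and Lcp2 encodes an adaptor of immune receptor signaling. For Ctsb they were Adora2b, Stk38 and Clec4a1 (each 0.99), for Ctsd Tap2, Mvp and Tnfrsf8 (each 0.99), for Ctsh Scp2, Nipsnap3b and Capza1 (each 0.98), and for Ctsl Nlrp1b and Tbx3 (each 0.98). Tap2 encodes a subunit of the transporter that supplies peptides to MHC class I. For Ctsz the list was Ppp1r21, Mmp10 and Pstpip1 (0.95 to 0.96), and for Cstb Ccng1, Tmsb4x and Commd1b (0.96 to 0.97). Ctsa was most like Tcirg1 (0.95), which encodes the proton pump subunit that osteoclasts need for acid secretion, then Cnbd2 (0.92) and Abcc5 (0.91). For Cst3 the list held Gpc3 and Ankrd46 (each 0.96). The r of each of these pairs over the 7 libraries lay between 0.73 and 0.98, and all are a description over few libraries that share the same outlying samples.

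Within a library, transcripts of the proteases and of their inhibitors can be set against each other per length. These are ratios of RNA, and protein levels and enzyme activity were not measured in these libraries. The summed TPM of the 6 cysteine cathepsins per summed TPM of the 2 cystatins was 1.62, 1.15 and 1.13 in the H-151 replicates, 2.24, 1.11 and 1.06 in the PBS replicates and 2.75, 1.17 and 1.23 in the SR-717 replicates. Replicate 1 had the highest ratio of each group. Ctsk, also a cysteine cathepsin, is left out of this ratio. It stood at 3022, 2793 and 4680 TPM in the H-151 replicates and at 3840, 4108 and 5119 TPM in the PBS replicates. In the SR-717 replicates it stood at 2192, 3970 and 4637 TPM. The order of libraries therefore holds for the 6 genes and need not hold with Ctsk included. Cst3 per Cstb was 3.31, 3.92 and 2.67 in the H-151 replicates, 1.26, 4.09 and 2.81 in the PBS replicates and 1.05, 3.36 and 2.65 in the SR-717 replicates. The transcript ratio of the secreted to the cytosolic inhibitor thus approached 1 in SR-717 replicate 1. Ctss per Ctsk was 0.63 in SR-717 replicate 1 and 0.22 in PBS replicate 1, and it lay between 0.08 and 0.19 in the other 7 libraries. Ctsk itself was at 1988 CPM in SR-717 replicate 1, below the 2226 to 4346 CPM of the other 8.

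The sum of the 10 genes was 6251 ± 651 TPM (SD, n = 3) in the H-151 group, 6953 ± 763 TPM in the PBS group and 7429 ± 1542 TPM in the SR-717 group. The group ranges overlapped. Without SR-717 replicate 1 (9208 TPM) the mean of the SR-717 group was 6540 TPM, and without PBS replicate 1 (7779 TPM) that of the PBS group was 6541 TPM.

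**Figure D4:**
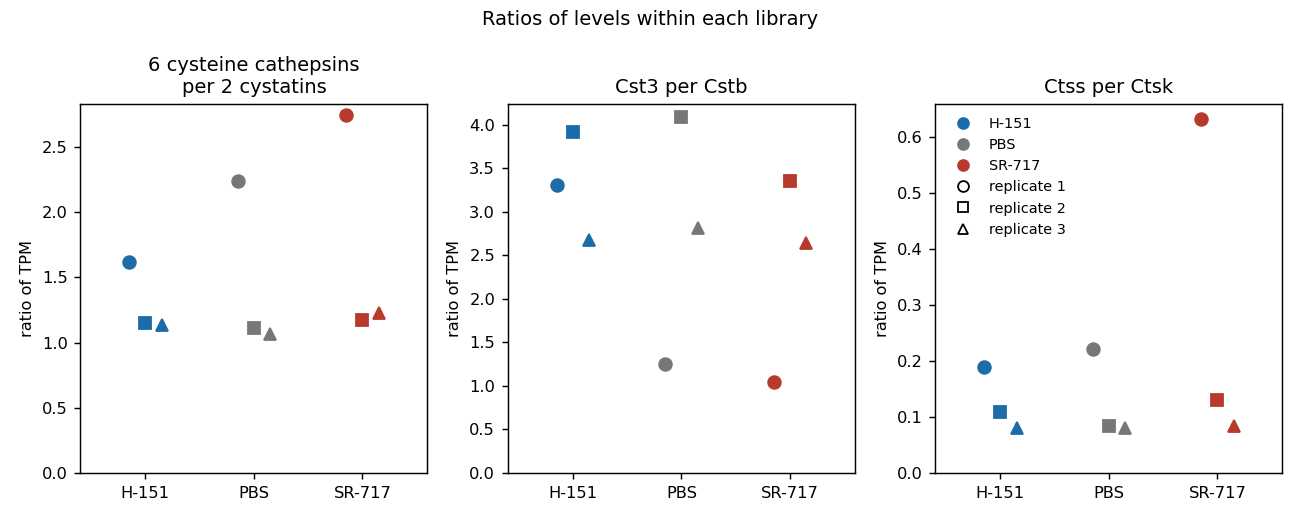
Each panel gives a ratio of TPM values on a linear axis by group, with 1 point per library shaped by replicate number: the 6 cysteine cathepsins, without Ctsk, per 2 cystatins (left), Cst3 per Cstb (middle) and Ctss per Ctsk (right). SR-717 replicate 1 and PBS replicate 1 have the highest values on the left and right and the lowest in the middle.

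Markers of other cell types differed among the same libraries. The 14 macrophage markers, none at 0 in any library, summed to 1089 to 1378 CPM in the H-151 group, 1071 to 1949 CPM in the PBS group and 1271 to 3629 CPM among the SR-717 libraries, and both highest values were those of replicate 1. The 10 neutrophil markers, of which S100a9 had the highest mean CPM over the libraries and none was at 0, summed to 1339 to 4737, 592 to 3527 and 2565 to 14401 CPM in the same groups, with the highest value in SR-717 replicate 1. PBS replicate 1, at 3527 CPM, lay inside the 592 to 4737 CPM of the other 7 libraries for this list. The macrophage receptor gene Csf1r was at 609 CPM in SR-717 replicate 1 and 405 in PBS replicate 1, against 268 to 388 CPM in the other 7 libraries. Cd14, a co-receptor of monocytes, was at 770 and 229 CPM in the same 2 libraries against 16.2 to 58.6 in the others. Not every macrophage marker ran this way. Cd163, a gene of low level on the same list, was at 0.88 and 0.46 CPM there against 0.73 to 3.55 in the others. In SR-717 against H-151, 12 of the 14 macrophage markers had a higher fitted level and 2 a lower one, beside 53.4% higher over all tested genes.

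Cartilage markers ran the other way. The 8 cartilage markers summed to 817 CPM in SR-717 replicate 1 and 2423 CPM in PBS replicate 1, against 6140 to 18535 CPM in the other 7 libraries, and Col2a1, the cartilage collagen gene, was at 50.2 and 858 CPM against 2573 to 10567 CPM. The 10 osteoclast markers summed to 4030 CPM in SR-717 replicate 1, 5273 CPM in PBS replicate 1 and 4125 to 6805 CPM in the others, and the 8 osteoblast markers to 22607 CPM, 29796 CPM and 29437 to 45560 CPM. The 6 erythroid markers summed to 623 and 317 CPM against 1132 to 10839 CPM, the 7 B cell markers to 11.2 and 7.02 CPM against 11.5 to 65.4 CPM, the 7 T and NK cell markers to 58.0 and 25.7 CPM against 12.3 to 31.4 CPM, and the 6 fibroblast markers to 17679 and 16724 CPM against 10095 to 16530 CPM. For the dendritic cell, muscle and keratinocyte lists, SR-717 replicate 1 lay within the range of the 7. The part of these differences in the levels of the cathepsins was not tested.

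**Figure D5:**
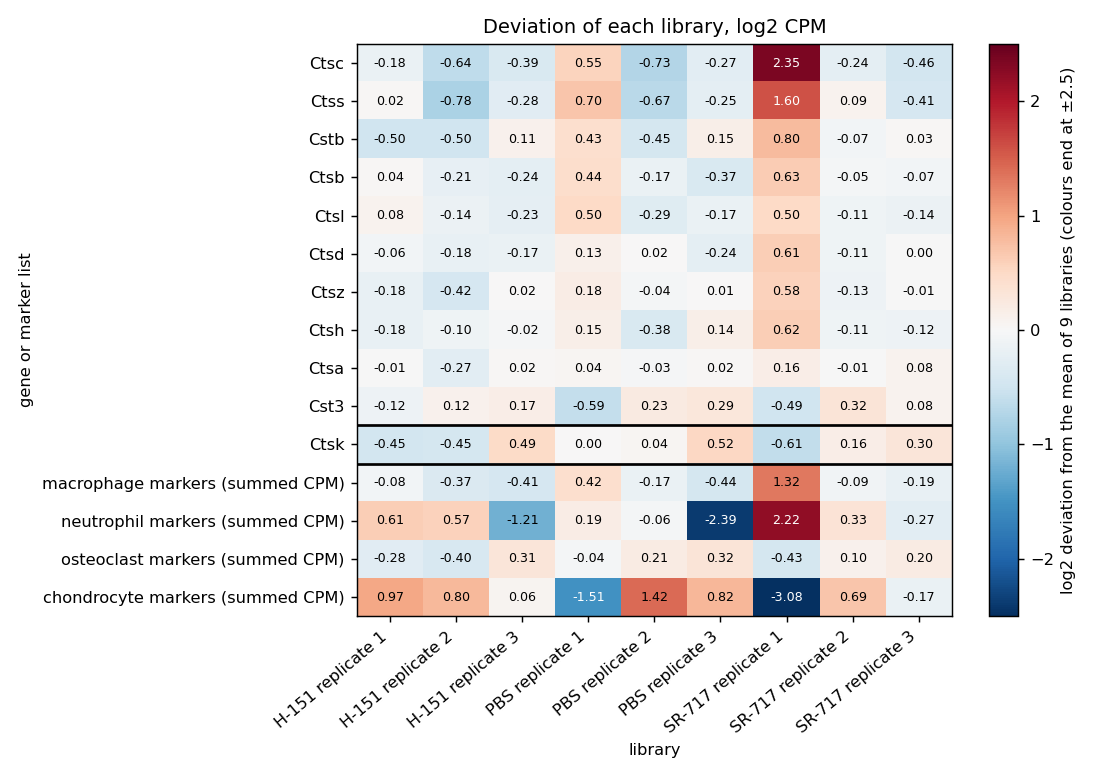
Rows are the 10 genes, Ctsk and the summed CPM of 4 marker lists, and columns are the 9 libraries. Each cell gives the log2 difference from the mean of the 9 libraries, with red for higher and blue for lower values and colours ending at ±2.5. SR-717 replicate 1 is at 2.35 for Ctsc, 1.60 for Ctss, 1.32 for the macrophage list and -3.08 for the chondrocyte list, and Cst3 is at -0.49 there.

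The rest of the lysosomal system was read from 7 further lists in the same fits. In edgeR's test 0 of their genes were called in any of the 3 comparisons, and 0 had an unadjusted p under 0.05. DESeq2's Wald test called 2 of the 5 tested cystatins in SR-717 against H-151, where it called 1.48% of all tested genes, and 0 genes of these lists elsewhere. Of 15 other cathepsin genes, 9 had no count in any library and 6 were tested. In the SR-717 group against the H-151 group these were led by Ctsg (0.51, standard error 0.78), a neutrophil granule protease activated by cathepsin C, and Ctso (0.22, standard error 0.27), with Ctsf (-0.28, standard error 0.27) and Ctse (-1.26, standard error 0.92) lowest. Ctsg was at 106 CPM in SR-717 replicate 1 and between 4.05 and 53.1 CPM in the other 8. Among 15 other cystatin genes in the table, 5 were tested, and Stfa2l1 (2.67, standard error 1.21) and Stfa1 (2.16, standard error 1.30) had the highest values, with Cst7 at 0.04 and Cst6 at -0.08. Stefin A genes are near-identical copies, so their separate counts are uncertain, and Stfa2l1 was at 47.6 CPM in SR-717 replicate 1, 13.4 CPM in PBS replicate 1 and 0.62 to 7.32 CPM in the others.

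Of 14 tested genes for sorting and processing of lysosomal enzymes, 11 had a higher fitted level in the SR-717 group than in the H-151 group (median 0.22). Psap, the precursor of the saposins, was highest (0.52, standard error 0.32), then M6pr (0.42, standard error 0.26), a mannose phosphate receptor, with Gnptg (-0.08) and Gga2 (-0.13) lowest. Psap reached 3975 CPM in SR-717 replicate 1 and 1553 to 2807 CPM in the other 8. For 35 lysosomal hydrolases the count was 32 higher (median 0.16), with Gla (0.93, standard error 0.52) and Acp2 (0.57, standard error 0.34) highest and Fuca1 (-0.10) and Hyal1 (-0.13) lowest. For 15 membrane proteins it was 11 (median 0.25), with Lamp2 (0.57, standard error 0.49) and Laptm5 (0.46, standard error 0.24) highest and Cd63 and Laptm4a (each -0.10) lowest.

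For 16 proton pump subunits 13 were higher (median 0.14), with Atp6v0c and Atp6ap2 (each 0.37) highest and Atp6v0e (-0.03) and Atp6v0a2 (-0.06) lowest. All 4 genes of the MiT/TFE family, the transcription factors of lysosomal genes, were higher by a fitted 0.27 (Mitf) to 0.70 (Tfec), with Tfe3 at 0.38 and Tfeb at 0.34. These counts stand beside 53.4% over all tested genes. Without SR-717 replicate 1 they were 2 of 6 other cathepsins, 3 of 5 other cystatins, 11 of 14 sorting genes, 29 of 35 hydrolases, 10 of 15 membrane proteins, 12 of 16 pump subunits and 3 of 4 MiT/TFE genes. The median of the sorting genes fell to 0.08 and that of the membrane proteins to 0.04. Over all tested genes the median in that fit was -0.005, and the share of 53.4% belongs to the fit with all 6 libraries.

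Against the PBS group, the SR-717 group had 4 of 6 other cathepsins, 5 of 5 other cystatins, 10 of 14 sorting genes, 22 of 35 hydrolases, 10 of 15 membrane proteins, 8 of 16 pump subunits and 3 of 4 MiT/TFE genes at a higher fitted level. The H-151 group had 4 of 6, 3 of 5, 3 of 14, 5 of 35, 2 of 15, 2 of 16 and 1 of 4 in the same order. In the former comparison Tfec (0.68, standard error 0.38), Gla (0.54, standard error 0.58) and Stfa1 (2.30, standard error 1.41) had the highest values of their lists. In the latter Sppl2a (-0.46, standard error 0.36), Mitf (-0.46, standard error 0.36) and Atp6v1a (-0.42, standard error 0.29) had the lowest of theirs. The share of all tested genes at a higher fitted level was 52.2% and 44.2%. Without SR-717 replicate 1, 5 of 14 sorting genes and 6 of 15 membrane proteins were higher in the former, and without PBS replicate 1, 5 of 14 and 7 of 15 in the latter. The medians over all tested genes in these fits were -0.017 and -0.006. Blocked on the replicate number, 3 of the 5 other cystatins and 1 of the 6 other cathepsins were called in SR-717 against PBS (3.15% of all tested genes), and 2 of the 6 in H-151 against PBS (1.86%).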

How the data were processed

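Callus RNA was sequenced from poly(A)-selected, strand-specific libraries. The authors deposited expected counts, which are estimates per gene that need not be whole and are not normalized, and TPM values, scaled by the authors for transcript length and library total. The submitters' processing notes name the build mm10. The aligner, the counting program and the annotation are not given in the sources used here. Groups and replicate numbers came from the sample labels. Of the expected counts, 8.91% were not whole (4 of the 10 genes had such values), and all were rounded before testing, since the design had assumed counts.

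Pairs of groups were compared in edgeR 4.0.16 (R 4.3.3) on their 6 libraries with filterByExpr (count 10, total 15), TMM and the quasi-likelihood test without covariates. Adjusted p-values follow Benjamini and Hochberg over all genes tested. Standard errors were derived from the F statistic, and 95% intervals from the t distribution. Log2 CPM used a prior count of 2. The procedure was tested on simulated data. The 10 genes and the lists of lysosomal and marker genes were chosen with earlier results of these data known. Genes beyond the 10 were named by rule: Ctsk, the highest and lowest pair of fold changes in each lysosomal list, the 3 genes most correlated with each of the 10, and markers where a value needed them. A few genes that this rule would name are not reported here. Genes that share exon bases with one of the 10 are named as a limit of counting. No further columns of per-sample values were left unread, and no pair of libraries agreed within sampling noise (smallest chi-square per gene over 36 pairs 24.7).

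Same-numbered libraries deviated together from their group means in SR-717 against PBS (r across genes 0.65, 0.34 and 0.14 for replicates 1, 2 and 3) and in H-151 against PBS (0.31, 0.49 and 0.50). The pairing comes from the replicate numbers in the labels, which do not say what they stand for. Counts blocked on the number are therefore printed for these comparisons. Other settings were DESeq2 1.42.0 (size factors or Wald test), a 2-fold threshold, no filter, a minimum mean count of 50, a single fit of all 9 libraries and each library left out in turn, and, added after seeing the data, library totals without TMM and leaving out both outlying libraries. Positions are from GENCODE for GRCm38, the assembly of mm10, and promoters from RefSeq (GRCm38.p6). Coordinates count from 1. Figures were drawn with matplotlib 3.10.9.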

Additional observations from a re-analysis of the deposited data

How the results depend on the processing

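In SR-717 against H-151 (107 genes called), 69 were called at a 2-fold threshold, 209 by DESeq2's Wald test, 223 without a filter, 61 at a mean count of at least 50 and 171 with all 9 libraries in 1 fit. DESeq2 gave 1 gene at an adjusted p under 0.05 and 1 of the 10 genes called, Ctsc (1.55). In SR-717 against PBS (73), the same 5 settings gave 41, 138, 194, 37 and 176, the replicate block gave 443, and leaving out SR-717 replicate 1 and PBS replicate 1 together gave 118. In H-151 against PBS (60), a 2-fold threshold gave 33, no filter 127, a mean count of at least 50 gave 28 and the block 262. With each library left out in turn, the counts ran from 64 (without H-151 replicate 2) to 661 (without SR-717 replicate 3), from 95 (without PBS replicate 3) to 319 (without SR-717 replicate 3) and from 43 (without H-151 replicate 2) to 698 (without PBS replicate 2), with moves of over 1.5 times also without SR-717 replicate 2 (384) in the first, PBS replicates 1 (118) and 2 (259) in the second, and H-151 replicate 3 (99), PBS replicate 1 (115) and PBS replicate 3 (153) in the third, and 0 to 2 of the 10 genes were called in the first comparison and 0 in the others.

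In SR-717 against H-151 same-numbered libraries correlated at 0.34 for replicate 1 and only at 0.06 and 0.08 for replicates 2 and 3. The block gave 143 genes in place of 107. It changed no call of the 10 genes in any comparison. With all libraries kept, the fitted values kept their sign in all 3 comparisons except for Ctsl in SR-717 against PBS, at -0.0098 with library totals without TMM. Without SR-717 replicate 1 and PBS replicate 1 together, Ctsh (-0.0029) and Ctsz (-0.035) also turned.

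Signs turned in single left-out fits, and the ranges of log2 fold change were as follows. In SR-717 against H-151 they were -0.026 to 0.39 for Ctsh, -0.048 to 0.30 for Ctsl and -0.25 to 0.14 for Cst3. In SR-717 against PBS they were -0.069 to 0.48 for Ctsb, -0.30 to 1.64 for Ctsc, -0.10 to 0.31 for Ctsh, -0.19 to 0.34 for Ctsl, -0.19 to 1.14 for Ctss, -0.12 to 0.26 for Ctsz, -0.030 to 0.36 for Ctsd, -0.25 to 0.19 for Cst3 and -0.11 to 0.43 for Cstb. In H-151 against PBS they were -0.30 to 0.15 for Ctsb, -0.58 to 0.10 for Ctsc, -0.23 to 0.0093 for Ctsh, -0.28 to 0.15 for Ctsl, -0.60 to 0.15 for Ctss and -0.19 to 0.18 for Cst3. The cause was not tested. With 3 libraries a group, and 2 of all 9 standing apart, the intervals are wide, and the effect of read depth was not tested.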
